A study of Homo sapiens with 21 samples.

Results

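The mitosis genes described here are 43 genes that code for the cyclins and CDK1, the mitotic kinases, the spindle checkpoint, the kinetochore, the spindle and the machinery of cell division. They were taken by symbol from a fixed list, and all 43 were present among the 20111 genes measured in each of 2 experiments on PC-9 cells, a human lung adenocarcinoma line that carries an activating deletion in exon 19 of the EGFR gene (labelled EGFR delE746-A750 in the first library, with a last residue that differs in each of the 21 labels). In the first experiment, polyadenylated RNA was sequenced from unsorted parental cells, EGFR-low cells and EGFR-high cells, all untreated and collected 24 h after seeding. In the second, EGFR-low and EGFR-high cells received DMSO, the vehicle, or 1 µM vorinostat (SAHA), an inhibitor of histone deacetylases, from 24 h after seeding and for 72 h. Each of the 7 groups had 3 replicates, which gives 21 libraries. The EGFR-low and EGFR-high cells came from the same line by 6 rounds of sorting on EGFR staining, so each is a single selected population, and no parental cells were part of the vorinostat experiment. The study describes its replicates as biological, from experiments done on separate occasions, and p-values measure the spread between these libraries. The question addressed is whether cells with low EGFR, and cells exposed to vorinostat, carry more or less mitotic RNA than their counterparts.

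Mitosis is driven by CDK1 bound to cyclin B, which the CDC25 phosphatases switch on and which the polo-like and Aurora kinases assist. Chromosomes attach to the spindle through kinetochores, and unattached kinetochores keep CDC20 from activating the anaphase-promoting complex (APC/C), the ubiquitin ligase that ends mitosis by marking cyclin B and securin for destruction. Most of these genes are transcribed in G2 and mitosis, so in a dividing culture their RNA follows the share of cells in those phases. In bulk RNA such as this, fewer cells in mitosis and less RNA per mitotic cell cannot be told apart.

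Values are FPKM, fragments scaled to transcript length and to the fragments mapped in the library. The unit was inferred from the values and the depth behind them is unknown. A library's FPKM summed to between 467897 and 592942 in the untreated experiment and to between 511011 and 582866 in the vorinostat experiment. EGFR was lower in every EGFR-low library than in any EGFR-high library of the same experiment: it ranged from 26.5 to 60.6 FPKM in EGFR-low and from 161 to 269 in EGFR-high untreated cells, from 17.7 to 43.3 against 83.3 to 152 under DMSO, and from 16.1 to 19.7 against 101 to 207 under vorinostat. The 10 epithelial markers examined, such as EPCAM and KRT8, summed to between 2037 and 4281 FPKM in all 21 libraries and none was listed at 0. Markers of other cell types were low, with sums of at most 5.90 FPKM for fibroblasts, 40.03 for leukocytes and 8.33 for endothelial cells.

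All 43 genes were expressed in all 21 libraries, with a lowest value of 3.42 FPKM, and all 43 passed the filter for testing (1 FPKM or more in 3 or more of the experiment's libraries). The genes differed widely in level. CCNB1 had the highest mean of the 43 in each untreated group, and CKS2, a small subunit of cyclin-dependent kinases, had it in each group of the vorinostat experiment. The lowest mean belonged to GTSE1, CDC25C or CENPE in the untreated groups and to CENPE or MAD2L1 in the others. The 43 genes together summed to between 2330 and 3160 FPKM per untreated library and to between 901 and 2115 FPKM per library of the vorinostat experiment. The 2 experiments were processed into separate tables and differ in time in culture, and their levels were not tested against each other.

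The first 6 anchor genes are the engine and the kinases of mitosis. CCNB1, cyclin B1, measured 274 ± 77.6 FPKM (mean ± SD, n = 3, as for every mean given here) in parental, 253 ± 45.05 in EGFR-low and 274 ± 93.1 in EGFR-high untreated cells. In the vorinostat experiment CCNB1 was 113 ± 37.8 in EGFR-low and 105 ± 16.8 in EGFR-high cells under DMSO, and 131 ± 24.4 and 91.5 ± 29.5 under vorinostat. The 3 untreated groups overlapped, with all means of CCNB1 within 1 SD of each other. CDK1, the kinase that cyclin B activates, measured 125 ± 11.6, 116 ± 10.9 and 95.1 ± 26.9 FPKM in parental, EGFR-low and EGFR-high untreated cells. Under DMSO, CDK1 was 48.0 ± 16.6 in EGFR-low and 61.3 ± 4.89 in EGFR-high cells, and under vorinostat 50.5 ± 9.34 and 62.5 ± 27.4. PLK1 is the polo-like kinase that promotes mitotic entry and spindle formation. It measured 92.3 ± 29.7, 95.9 ± 42.7 and 109 ± 41.4 FPKM in the same order of untreated groups. Under DMSO it was 39.9 ± 15.8 and 47.4 ± 3.61, and under vorinostat 48.0 ± 13.4 and 38.6 ± 14.8, in EGFR-low and EGFR-high cells.

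AURKA, the Aurora kinase of centrosomes and spindle poles, measured 59.4 ± 10.6 FPKM in parental, 55.9 ± 15.1 in EGFR-low and 63.5 ± 5.87 in EGFR-high untreated cells. It was 27.7 ± 11.6 and 37.6 ± 4.37 under DMSO, and 31.5 ± 7.41 and 34.6 ± 12.5 under vorinostat, in EGFR-low and EGFR-high cells. AURKB is the Aurora kinase of the chromosomal passenger complex, which corrects faulty attachments of chromosomes. Its untreated groups overlapped, at 18.7 ± 2.38, 21.7 ± 8.49 and 21.2 ± 4.20 FPKM in parental, EGFR-low and EGFR-high cells. In the vorinostat experiment AURKB was 42.1 ± 8.24 in EGFR-low against 19.5 ± 7.54 in EGFR-high cells under DMSO, and 52.8 ± 10.7 against 18.1 ± 6.85 under vorinostat. In both treatments every EGFR-low library had more AURKB than any EGFR-high library. BUB1, a checkpoint kinase of the kinetochore, measured 45.7 ± 8.501, 36.1 ± 4.32 and 35.0 ± 2.72 FPKM in the untreated groups, 18.5 ± 7.10 and 16.2 ± 2.35 under DMSO, and 21.6 ± 6.18 and 13.1 ± 3.93 under vorinostat.

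The other 6 anchor genes act on the checkpoint, the spindle and the chromosomes. CDC20, the APC/C activator, measured 76.2 ± 13.1 FPKM in parental, 81.1 ± 33.0 in EGFR-low and 123.1 ± 23.7 in EGFR-high untreated cells, then 34.4 ± 10.8 and 50.4 ± 7.23 under DMSO and 42.6 ± 5.62 and 51.7 ± 9.74 under vorinostat in EGFR-low and EGFR-high cells. BIRC5 (survivin), a subunit of the chromosomal passenger complex, measured 41.4 ± 12.6, 39.2 ± 5.56 and 37.6 ± 12.5 FPKM in the untreated groups, 34.9 ± 9.71 and 25.5 ± 5.04 under DMSO, and 40.7 ± 8.82 and 21.3 ± 8.22 under vorinostat. The remaining 4 anchor genes have longest transcripts of more than 4000 bases, and all 4 were lowest in replicate 2 of each untreated group. KIF11, the kinesin that pushes spindle poles apart, measured 34.5 ± 16.9, 29.9 ± 11.1 and 24.8 ± 10.6 FPKM untreated, 17.2 ± 5.20 and 14.8 ± 2.39 under DMSO, and 19.5 ± 4.01 and 13.1 ± 3.46 under vorinostat. CENPF, a large protein of the outer kinetochore, measured 60.3 ± 34.4, 41.4 ± 17.3 and 44.6 ± 21.1 FPKM untreated, 18.6 ± 6.17 and 17.1 ± 2.15 under DMSO, and 21.4 ± 4.27 and 19.6 ± 6.79 under vorinostat. For both genes the libraries of the 3 untreated groups overlapped. TOP2A, the topoisomerase that untangles sister chromatids, measured 123.1 ± 55.5, 94.3 ± 31.8 and 92.7 ± 31.1 FPKM untreated, 74.3 ± 15.4 and 61.6 ± 8.88 under DMSO, and 80.1 ± 10.4 and 56.2 ± 21.2 under vorinostat. MKI67, the coat protein of mitotic chromosomes and a standard marker of proliferation, measured 66.4 ± 38.9, 56.7 ± 31.4 and 56.2 ± 29.6 FPKM untreated, 22.8 ± 4.89 and 16.1 ± 4.23 under DMSO, and 26.5 ± 3.10 and 17.6 ± 4.94 under vorinostat.

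**Figure D1:**
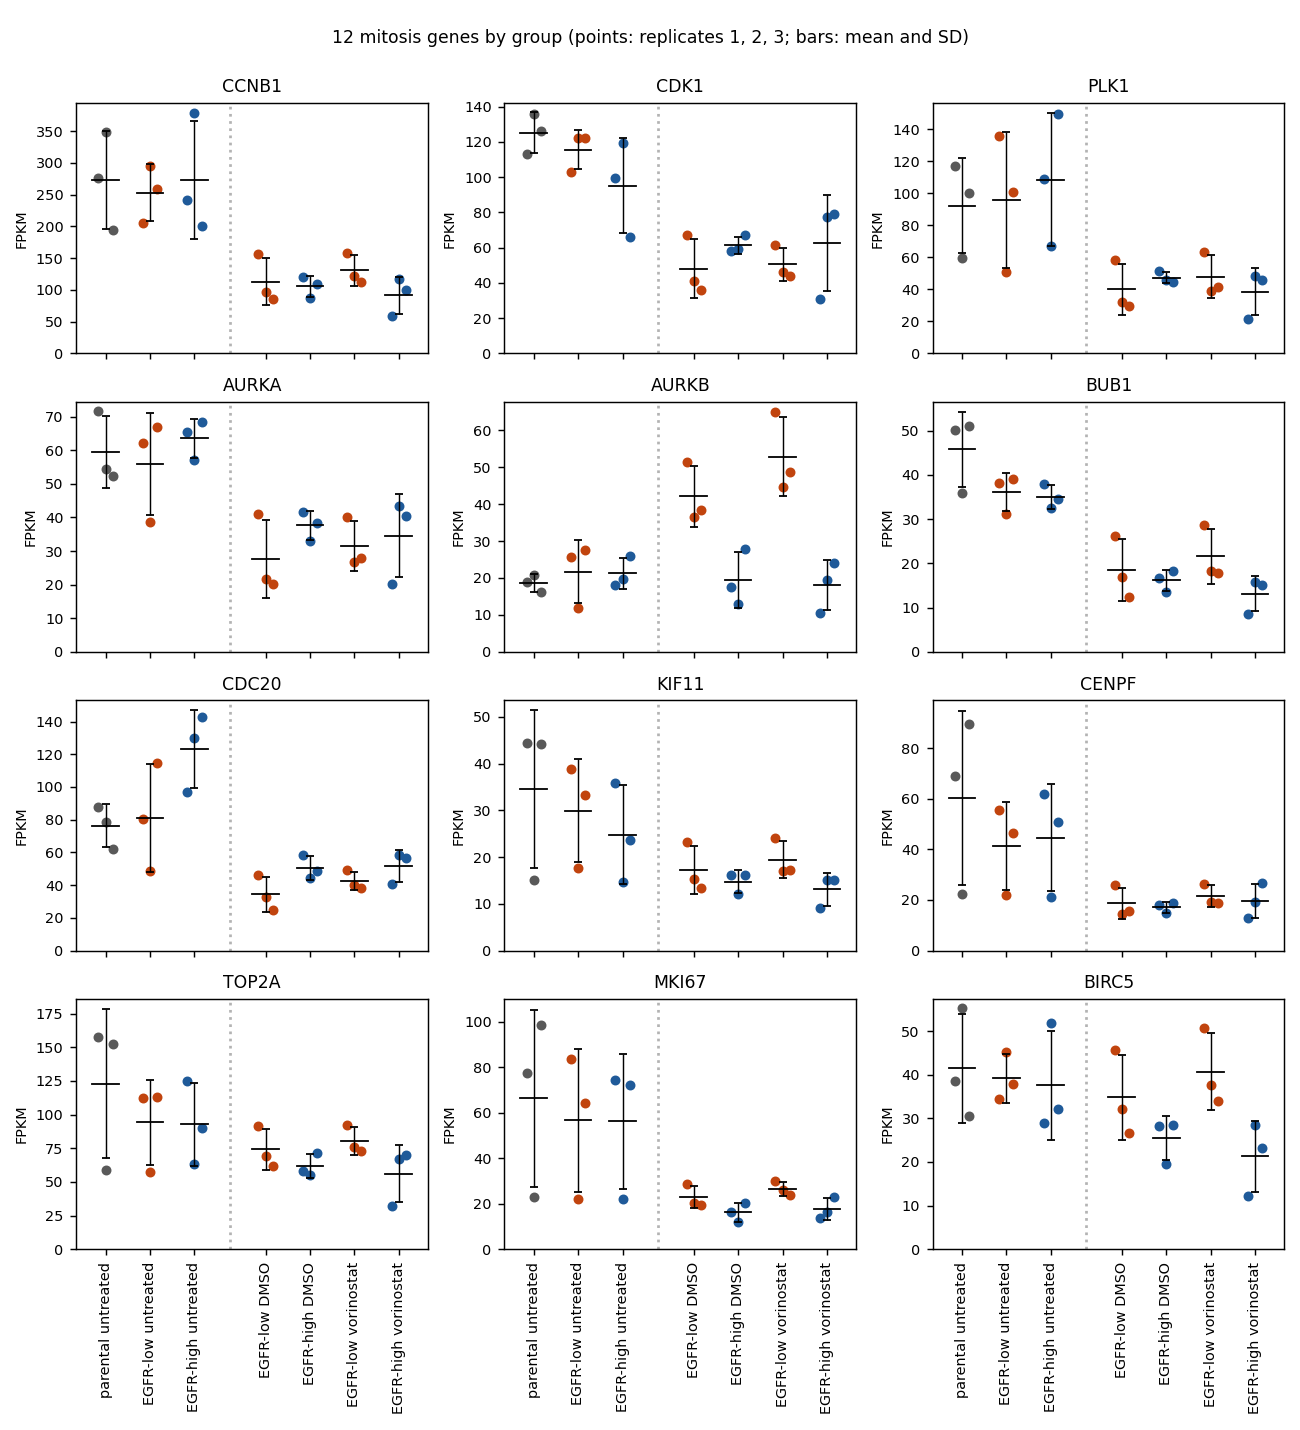
FPKM (vertical axis, from 0) of the 12 anchor genes in the 7 groups, with 1 point per library in the order of replicates 1, 2 and 3, a horizontal bar at the mean and an error bar of 1 SD. The dotted line separates the untreated experiment from the vorinostat experiment, which were not tested against each other. Replicate 2 of each untreated group lies at 22.1 to 23.1 FPKM for MKI67, below all other untreated libraries, and AURKB is at 36.4 FPKM or more in every EGFR-low library to the right of the line.

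Libraries of the same group differed from each other across the whole set, and these differences touch every comparison. In replicate 1 of EGFR-high cells under vorinostat, 43 of 43 genes had the lowest value of their group, against 52.8% of the 12236 tested genes. The 43 genes summed to 901 FPKM there and to 1645 and 1605 in the other replicates. The same library listed CDKN1A, the p21 inhibitor of cyclin-dependent kinases, at 21.7 FPKM against 1.79 and 3.25, and its mitochondrial genes held 24.2% of all FPKM against 7.27 and 10.3%, a share that was also high, 22.2%, in replicate 1 of EGFR-low cells under vorinostat. Replicate 1 of EGFR-low cells stood at the other end: 40 of 43 genes had the highest value of their group under DMSO (37.1% of tested genes did) and 42 of 43 did under vorinostat (32.9%). Their sums were 1988 FPKM against 1362 and 1195 under DMSO, and 2115 against 1559 and 1530 under vorinostat. The EGFR-low DMSO library of this kind also had more EGFR than the other replicates, 43.3 FPKM against 17.7 and 19.3. For EGFR-low DMSO replicate 1 and EGFR-high vorinostat replicate 1, the counts of the 43 genes, and of related gene lists between EGFR-low and EGFR-high cells, are also given without the library.

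The untreated libraries differed in another way, by transcript length. Of the 43 genes, 11 have a longest transcript of at least 4000 bases and 9 one below 2000 bases. In replicate 2 of the EGFR-high, EGFR-low and parental cells the median deviation of the 11 long genes from their own mean over the experiment was -0.61, -0.71 and -0.67 on the log2 scale, while that of the 9 short genes was 0.19, 0.15 and 0.36. MKI67 was 77.5, 23.1 and 98.5 FPKM in parental replicates 1, 2 and 3, 83.6, 22.3 and 64.1 in EGFR-low and 74.3, 22.1 and 72.2 in EGFR-high cells. The motor CENPE, which carries chromosomes to the spindle equator, was 28.2, 7.87 and 37.7 FPKM in parental, 19.4, 7.11 and 14.97 in EGFR-low and 20.2, 4.77 and 14.8 in EGFR-high cells. Replicate 2 was the lowest of its group for both genes in all 3 groups. Not all 11 long genes followed this. MAD2L1 was highest in replicate 2 of all 3 groups, at 27.4 FPKM in parental, 23.2 in EGFR-low and 18.9 in EGFR-high cells. CKS2, with a short transcript, was 145, 362 and 97.5 FPKM in parental, 124, 256 and 155 in EGFR-low and 136, 279.5 and 144 in EGFR-high cells, and replicate 2 was the highest of its group each time. Over the 43 genes, Spearman's rho of the deviation with transcript length was -0.68, -0.43 and -0.61 in these 3 libraries of the EGFR-high, EGFR-low and parental cells, as a description without a test, since genes of a library share its preparation. In the vorinostat experiment it lay between -0.28 and 0.19. Removing the trend with length and GC content moved the log2 fold changes of the 43 genes between EGFR-low and EGFR-high untreated cells by a median of 0.07 and at most 0.18, and those of EGFR-low and EGFR-high against parental cells by medians of 0.12 and 0.19. The part of transcript length in these comparisons was not tested beyond this.

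**Figure D2:**
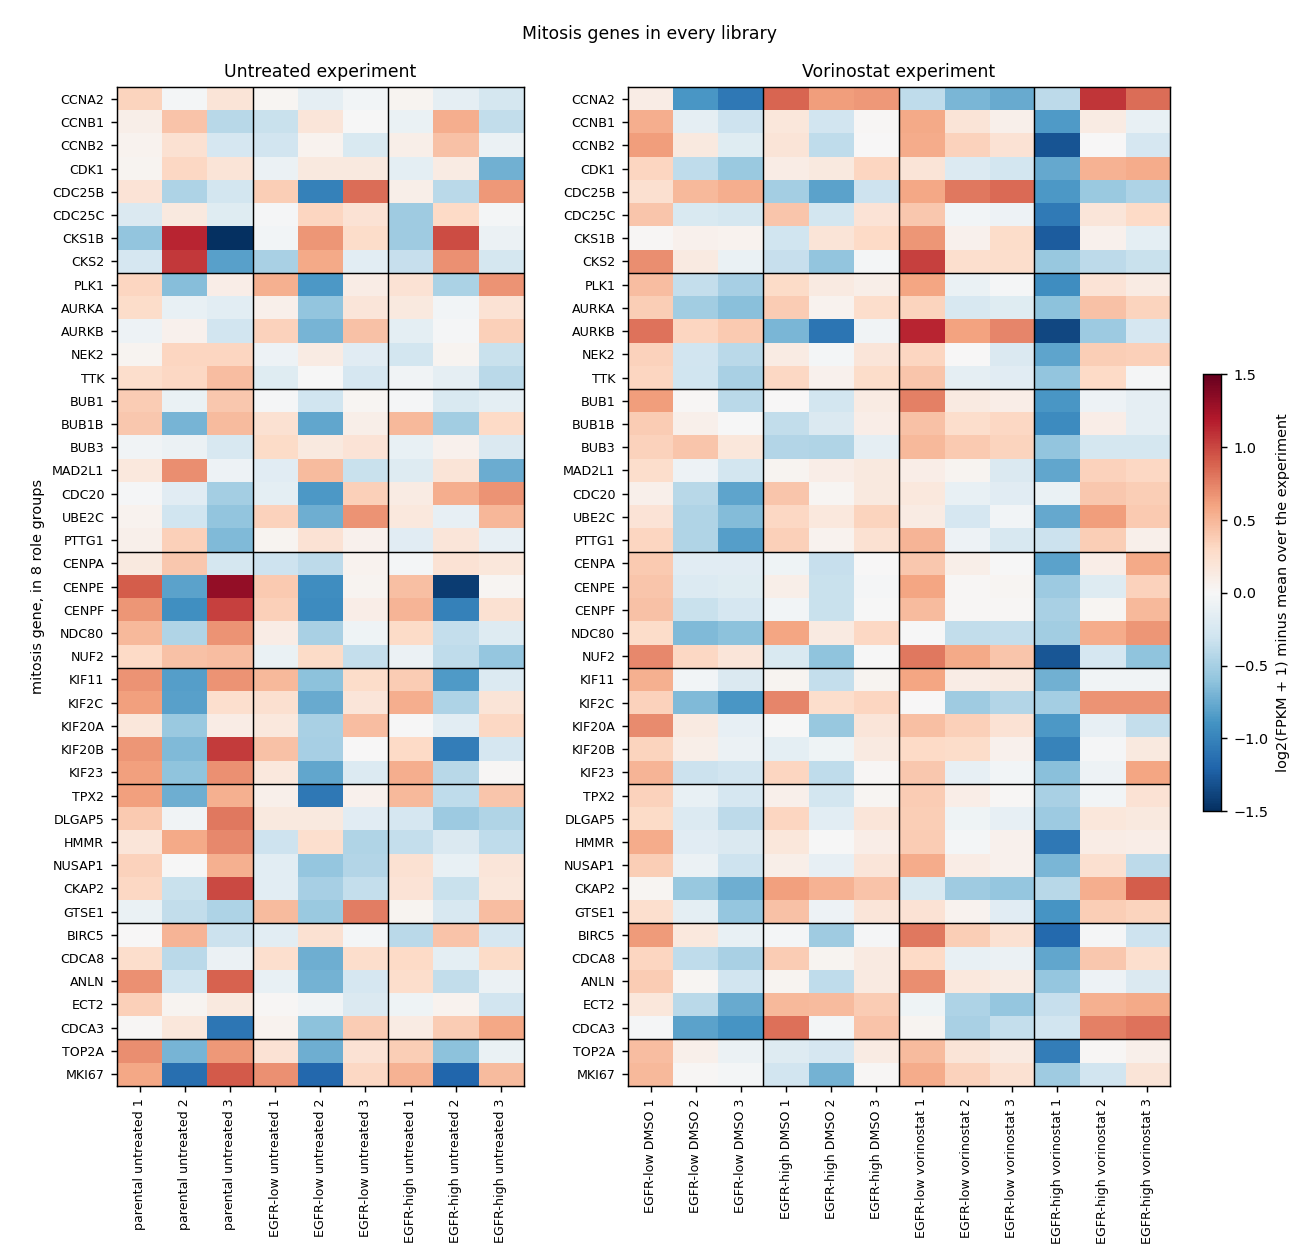
Each row is a mitosis gene, ordered in 8 role groups separated by lines, and each column a library, with the untreated experiment on the left and the vorinostat experiment on the right. Colour gives log2(FPKM + 1) minus the gene's mean over the libraries of that experiment, saturating at 1.5 units in either direction. EGFR-high vorinostat 1 is blue in nearly every row and replicate 1 of both EGFR-low groups mostly red. Replicate 2 of each untreated group is blue in the rows of most long genes, such as CENPE, CENPF and MKI67, but not in that of MAD2L1.

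Promoter sequences are given as background, because mitosis genes often share promoter elements. These are the cell cycle genes homology region (CHR) and CCAAT boxes, which the DREAM, B-MYB and FOXM1 complexes and NF-Y bind. The part of these elements in any difference between libraries was not tested. RefSeq windows of GRCh38.p14, from 250 bases before to 50 after a start, were found for 37 of the 43 genes (47 windows, since some genes have several starts). The CHR was searched as the letters TTTGAA, and as a common variant that reads TTTAAA, on both strands, and was found in 36 of the 47 windows (76.6%), against 24.0% of 35116 windows of all genes. Within the 50 bases before the start they were in 38.3% of the 47, against 4.39% of all windows. CCAAT, on either strand, was in 74.5% against 34.6%. These motifs were searched as letters, and a match is not a binding site. The 4 named genes of different roles with a match nearest the start are shown first, from 120 bases before the start to the base before it. CDK1 lies at chr10:60778358-60778477 (plus strand), ANLN at chr7:36389742-36389861 (plus strand), HMMR at chr5:163460512-163460631 (plus strand) and BUB1B at chr15:40160949-40161068 (plus strand). CCNA2, at chr4:121823884-121824003 (minus strand), and CKAP2, at chr13:52455868-52455987 (plus strand), follow as the genes lower in EGFR-low cells under both DMSO and vorinostat, chosen after their values were seen. Capitals mark the matches to these motifs, in either orientation.
CDK1: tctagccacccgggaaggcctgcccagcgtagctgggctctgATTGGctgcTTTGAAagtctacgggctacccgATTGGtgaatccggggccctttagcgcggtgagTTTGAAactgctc
ANLN: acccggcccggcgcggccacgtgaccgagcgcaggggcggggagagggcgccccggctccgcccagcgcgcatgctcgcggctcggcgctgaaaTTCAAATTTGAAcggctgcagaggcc
HMMR: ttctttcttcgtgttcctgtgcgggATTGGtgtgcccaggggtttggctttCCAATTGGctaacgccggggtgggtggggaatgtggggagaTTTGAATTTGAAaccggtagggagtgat
BUB1B: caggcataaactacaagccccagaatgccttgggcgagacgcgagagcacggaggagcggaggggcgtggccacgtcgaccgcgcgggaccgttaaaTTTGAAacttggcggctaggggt
CCNA2: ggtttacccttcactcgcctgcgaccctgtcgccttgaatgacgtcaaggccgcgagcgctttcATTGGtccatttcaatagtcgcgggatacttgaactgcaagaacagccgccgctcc
CKAP2: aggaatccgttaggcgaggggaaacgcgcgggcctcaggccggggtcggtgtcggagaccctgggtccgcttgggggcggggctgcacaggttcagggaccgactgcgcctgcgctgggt

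The CDK1 stretch holds 2 CHR matches, the nearest starting 13 bases before the start, and 2 CCAAT matches. ANLN and HMMR each hold 2 adjacent CHR matches, of which the nearest starts 20 and 22 bases before the start, and BUB1B holds 1 that starts 23 bases before it. HMMR has 3 CCAAT matches in this stretch, 2 of which overlap, and ANLN and BUB1B have none. The CCNA2 stretch holds 1 CCAAT match and no CHR match by these letters, and the CKAP2 stretch holds neither.

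In untreated cells, no mitosis gene was called different between EGFR-low and EGFR-high cells. Of the 43 genes, 0 had an adjusted p under 0.05 (limma on log2(FPKM + 1), Benjamini-Hochberg over 11305 genes) and 0 had an unadjusted p under 0.05, where 3.81% of all tested genes were called. The log2 fold change of EGFR-low over EGFR-high cells was positive for 21 genes and negative for 22, with a median of -0.003 against -0.03 over all tested genes. In a fit with a block for the pairs, since these libraries pair by number, 0 of the 43 genes were called and 2 had an unadjusted p under 0.05, while 8.54% of all tested genes were called. The most negative log2 fold change was that of CDC20 and the most positive that of DLGAP5. CDC20 measured 80.4, 48.4 and 114 FPKM in EGFR-low and 96.7, 129.7 and 143 in EGFR-high cells, and the groups overlapped (log2 fold change -0.66, SE 0.33, 95% interval -1.38 to 0.06, adjusted p = 0.432). DLGAP5, a microtubule-binding protein that stabilises spindle fibres, measured 71.6, 71.9 and 57.2 against 54.1, 43.9 and 47.0, with all EGFR-low libraries above all EGFR-high ones (log2 fold change 0.46, SE 0.27, 95% interval -0.13 to 1.04, adjusted p = 0.539). In all, 3 of the 43 genes had groups that did not overlap (DLGAP5 and BUB3 higher, NUSAP1 lower in EGFR-low cells), where 20.6% of tested genes did (9.39% higher and 11.2% lower). For 24 of 43 genes the 95% interval of the difference lay within 1 log2 unit in either direction, and for the other 19 it reached past that size.

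Against parental cells, no mitosis gene was called either (limma, as above). In EGFR-low cells 0 of 43 genes were called, where 1.6% of tested genes were, and in EGFR-high cells 0 of 43, where 0.0708% were. An unadjusted p under 0.05 was reached by 4 genes in each comparison (9.3%, beside 14.8% of all tested genes for EGFR-low and 9.67% for EGFR-high cells), all 4 lower than in parental cells: NUSAP1, HMMR, ANLN and TTK in EGFR-low cells, and NUF2, HMMR, DLGAP5 and TTK in EGFR-high cells. The comparisons share the parental libraries. The median log2 fold change of the 43 genes was -0.19 in EGFR-low and -0.14 in EGFR-high cells, beside 0.06 and 0.07 over all tested genes. ANLN, the actin-binding anillin of the cleavage furrow, had the most negative log2 fold change in EGFR-low cells: it measured 109.9, 72.1 and 99.3 FPKM against 191, 96.4 and 221 in parental cells (log2 fold change -0.78, SE 0.34, 95% interval -1.54 to -0.03, adjusted p = 0.320). At the positive end CKS1B, a CDK subunit that also serves the ligase for the inhibitor p27, measured 28.2, 46.3 and 35.4 against 18.8, 65.2 and 7.54 (log2 fold change 0.72, SE 0.63, 95% interval -0.66 to 2.10, adjusted p = 0.603). Parental replicates of CKS1B alone spanned the whole range of the EGFR-low ones. In EGFR-high cells HMMR, a spindle assembly factor, measured 75.6, 83.8 and 74.4 FPKM against 111, 144 and 160.2, with no overlap between the groups (log2 fold change -0.81, SE 0.26, 95% interval -1.39 to -0.22, adjusted p = 0.507), and CDC20 was at the positive end with 96.7, 129.7 and 143 against 87.8, 78.8 and 61.9 (log2 fold change 0.68, SE 0.33, 95% interval -0.04 to 1.40, adjusted p = 0.507).

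Under DMSO, EGFR-low and EGFR-high cells differed in 9 of the 43 genes, of which EGFR-low cells had 4 higher and 5 lower. The comparison calls 51.8% of all tested genes (31.1% higher and 20.7% lower), so that the share of mitosis genes called, 20.9%, was under that background. Their median log2 fold change was -0.02, beside 0.12 over all tested genes. Rescaling libraries by median-of-ratios brings the median of all genes to 0.01 and gives 3 higher and 7 lower mitosis genes with a median of -0.15 over the 43. Among these NUF2 was no longer called, and KIF2C and NDC80 were called lower. The groups did not overlap for 7 genes, AURKB, CDC25B, NUF2 and BUB3 above and CCNA2, CKAP2 and ECT2 below, where 69.3% of tested genes did not overlap (40.9% above and 28.4% below). CDKN1A was higher in EGFR-low cells in this comparison, and its part in these differences was not tested.

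The 4 genes higher in EGFR-low cells under DMSO act in different places. CDC25B is the phosphatase that starts CDK1 activation at centrosomes. It measured 26.8, 32.1 and 33.5 FPKM in EGFR-low and 15.6, 12.5 and 17.97 in EGFR-high cells, without overlap, and was higher by 0.96 on the log2 scale (SE 0.16, 95% interval 0.62 to 1.31, adjusted p = 5.59e-04). AURKB measured 51.5, 36.4 and 38.3 against 17.7, 13.0 and 27.8, again with every EGFR-low library above every EGFR-high one, and was higher by 1.12 on the log2 scale (SE 0.31, 95% interval 0.45 to 1.79, adjusted p = 0.00972). BUB3 is the checkpoint protein that brings BUB1 and BUBR1 to kinetochores. It measured 83.6, 87.8 and 74.0 against 48.3, 47.8 and 59.6, had groups that did not overlap and was higher by 0.65 on the log2 scale (SE 0.13, 95% interval 0.37 to 0.93, adjusted p = 0.00156). NUF2, a subunit of the NDC80 complex that binds microtubules at the kinetochore, measured 28.1, 20.9 and 19.1 against 14.2, 10.7 and 16.6 and was higher by 0.68 on the log2 scale (SE 0.25, 95% interval 0.13 to 1.23, adjusted p = 0.0403). CDC25B, AURKB and BUB3 were called under all 16 alternatives run for this comparison, and NUF2 under 8 of 16.

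The 5 genes lower in EGFR-low cells under DMSO were led by CCNA2, cyclin A2, which works in S phase and up to prometaphase. CCNA2 measured 22.5, 10.9 and 9.40 FPKM in EGFR-low and 39.0, 32.6 and 33.3 in EGFR-high cells, with no overlap, and was lower in EGFR-low cells (log2 fold change -1.33, SE 0.36, 95% interval -2.12 to -0.54, adjusted p = 0.00955). CKAP2, a spindle microtubule protein, measured 26.4, 17.2 and 15.2 against 40.3, 37.6 and 35.1, also without overlap (log2 fold change -0.95, SE 0.29, 95% interval -1.58 to -0.31, adjusted p = 0.0178). ECT2 is the exchange factor that activates RhoA at the cleavage furrow. It measured 42.9, 28.5 and 22.2 against 54.1, 53.3 and 49.8 and had groups that did not overlap (log2 fold change -0.78, SE 0.27, 95% interval -1.36 to -0.19, adjusted p = 0.0294). CDCA3, a trigger of mitotic entry, measured 14.6, 7.98 and 7.48 against 26.8, 14.4 and 20.2 (log2 fold change -0.98, SE 0.33, 95% interval -1.71 to -0.26, adjusted p = 0.0270), and CDC20 46.1, 32.5 and 24.8 against 58.4, 44.4 and 48.4 (log2 fold change -0.57, SE 0.21, 95% interval -1.04 to -0.10, adjusted p = 0.0426). In both, EGFR-low replicate 1 reached into the range of the EGFR-high libraries. CCNA2 was called under all 16 alternatives, CKAP2 under 13, CDCA3 and ECT2 under 11 and CDC20 under 9. The count fell to 4 without EGFR-high DMSO replicate 1 and to 4 without EGFR-low DMSO replicate 2, which left AURKB, BUB3, CCNA2 and CDC25B both times. Without EGFR-low DMSO replicate 1 it was 12, 3 higher and 9 lower, with a median of -0.25 over the 43. Without EGFR-low DMSO replicate 1 and EGFR-high vorinostat replicate 1, a choice made after seeing the data, 20 genes were called, 4 higher and 16 lower. These kept the 9 genes and added AURKA, CDCA8, CDK1, GTSE1, KIF2C, NDC80, NEK2, PLK1, PTTG1, TTK and UBE2C. The share of all tested genes called, 51.8% with all libraries, is not given here for this setting. EGFR-low vorinostat replicate 1, in which 42 of 43 genes had the highest value of their group, was kept in it.

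Under vorinostat, EGFR-low and EGFR-high cells differed in 14 of the 43 genes, of which EGFR-low cells had 12 higher and 2 lower. All tested genes were called at 59% (36.2% higher and 22.8% lower), so this share of 32.6% was again under the background. The median log2 fold change was 0.29 beside 0.16 over all tested genes. EGFR-high vorinostat replicate 1, in which all 43 genes were the lowest of their group and CDKN1A was high, moves this split. Without it 14 genes were again called, of which 8 were also called with it, but 6 were higher and 8 lower, with a median of -0.01. Median-of-ratios scaling brings the median of all genes to 0.003 and gives 7 higher and 4 lower genes. A fit with a block for the replicate number called 13 genes and lost CKAP2. The groups did not overlap for 15 genes, all above, where 60.8% of tested genes did not overlap (37.3% above and 23.5% below).

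The genes with the largest differences under vorinostat were AURKB, CDC25B and NUF2, which were also called higher under DMSO. AURKB measured 65.0, 44.7 and 48.8 FPKM in EGFR-low and 10.6, 19.5 and 24.1 in EGFR-high cells and was higher by 1.55 on the log2 scale (SE 0.31, 95% interval 0.88 to 2.22, adjusted p = 0.00108). CDC25B measured 34.3, 39.8 and 41.5 against 11.96, 15.1 and 16.1 and was higher by 1.37 on the log2 scale (SE 0.16, 95% interval 1.03 to 1.71, adjusted p = 4.76e-05). NUF2 measured 29.7, 25.3 and 22.5 against 6.26, 13.9 and 10.6 and was higher by 1.30 on the log2 scale (SE 0.25, 95% interval 0.75 to 1.86, adjusted p = 9.36e-04). In these 3 genes and in BUB3 every EGFR-low library was above every EGFR-high one, with and without EGFR-high replicate 1. BUB3 measured 92.0, 86.1 and 82.9 against 43.4, 54.3 and 54.7 and was higher by 0.77 on the log2 scale (SE 0.13, 95% interval 0.49 to 1.05, adjusted p = 3.46e-04). Each of the 4 was called under all 16 alternatives.

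The other 8 genes higher in EGFR-low cells under vorinostat were not called under every alternative. BIRC5 measured 50.7, 37.6 and 34.0 FPKM against 12.3, 28.4 and 23.1 (log2 fold change 0.96, SE 0.29, 95% interval 0.33 to 1.60, adjusted p = 0.0138) and CKS2 360.4, 211 and 212 against 119, 134 and 139 (log2 fold change 0.95, SE 0.24, 95% interval 0.42 to 1.48, adjusted p = 0.00552). Both were called under 15 of 16 alternatives. Cyclin B2 (CCNB2) measured 43.5, 37.7 and 34.4 against 11.3, 29.4 and 24.5 (log2 fold change 0.89, SE 0.31, 95% interval 0.22 to 1.56, adjusted p = 0.0259). KIF20A, a kinesin of the central spindle needed for cytokinesis, measured 19.0, 17.6 and 15.9 against 7.04, 12.4 and 10.4 (log2 fold change 0.79, SE 0.25, 95% interval 0.23 to 1.34, adjusted p = 0.0191). Both missed the threshold without EGFR-high replicate 1, whose values were the lowest of its group, as did ANLN, BUB1B, CKS1B and MKI67. CKS1B measured 29.03, 19.0 and 22.1 against 7.03, 19.0 and 16.2 (log2 fold change 0.78, SE 0.30, 95% interval 0.13 to 1.42, adjusted p = 0.0399) and BUB1B, the checkpoint protein BUBR1 that inhibits the APC/C, 23.6, 20.7 and 21.5 against 8.48, 18.5 and 15.5 (log2 fold change 0.66, SE 0.23, 95% interval 0.15 to 1.17, adjusted p = 0.0288). They were called under 8 of 16 alternatives each, as was MKI67, which measured 29.9, 25.9 and 23.8 against 13.6, 16.2 and 23.1 (log2 fold change 0.59, SE 0.23, 95% interval 0.09 to 1.08, adjusted p = 0.0416). The remaining gene called higher was ANLN, with 98.5, 67.8 and 65.7 against 40.1, 57.5 and 51.8 (log2 fold change 0.62, SE 0.22, 95% interval 0.14 to 1.1, adjusted p = 0.0299) and a call under 10 of 16 alternatives.

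The 2 genes lower in EGFR-low cells under vorinostat were CCNA2 and CKAP2, both also lower under DMSO. CCNA2 measured 15.7, 12.5 and 11.9 FPKM against 15.5, 44.8 and 37.8 (log2 fold change -1.11, SE 0.36, 95% interval -1.91 to -0.32, adjusted p = 0.0200) and CKAP2 21.9, 17.6 and 17.1 against 19.1, 38.4 and 49.6 (log2 fold change -0.79, SE 0.29, 95% interval -1.43 to -0.16, adjusted p = 0.0342). In both, EGFR-high replicate 1 lay within the range of the EGFR-low libraries, and the other EGFR-high replicates far above it. CCNA2 was called under 12 of 16 alternatives and CKAP2 under 9. Without EGFR-low replicate 1 the count of called genes fell to 8, and to 9 without EGFR-low replicate 2 or replicate 3. The genes called under both DMSO and vorinostat numbered 6, CCNA2, CKAP2, BUB3, NUF2, CDC25B and AURKB, all in the same direction. They are 66.7% of the genes called under DMSO and 42.9% of those called under vorinostat. Of all tested genes 51.8% were called under DMSO and 59% under vorinostat. The share of all genes called in both was not counted. These comparisons share no library but were fitted together, with one estimate of the spread.

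By role, the calls were spread over the whole of mitosis. Of the 8 genes for cyclins, CDK1 and its activators, 1 was higher (CDC25B) and 1 lower (CCNA2) in EGFR-low cells under DMSO, and under vorinostat 4 were higher (CDC25B, CKS2, CCNB2 and CKS1B) and 1 lower (CCNA2). Of the 5 mitotic kinases, AURKB was the 1 called in each treatment, while PLK1, AURKA, NEK2 and TTK had log2 fold changes between -0.49 and -0.21 under DMSO and between -0.08 and 0.36 under vorinostat. Of the 7 genes of the spindle checkpoint and the APC/C, BUB3 was higher and CDC20 lower under DMSO, and BUB3 and BUB1B were higher under vorinostat. Of the 5 kinetochore and centromere genes NUF2 was the 1 called in each treatment. Its partner NDC80 had log2 fold changes of -0.68 and -0.48 and was not called.

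Of the 5 kinesins, 0 were called under DMSO (limma, with an unadjusted p under 0.05 for 1, KIF2C) and KIF20A was higher under vorinostat. KIF2C, which takes microtubules apart at centromeres, had the most negative value of the kinesins, -0.84 under DMSO (adjusted p = 0.0682) and -0.60 under vorinostat (adjusted p = 0.168). Of the 6 spindle assembly genes CKAP2 was lower in each treatment, and the other 5 were not called. Of the 5 genes of the chromosomal passenger complex, cytokinesis and mitotic entry, ECT2 and CDCA3 were lower under DMSO, and BIRC5 and ANLN were higher under vorinostat. TOP2A and MKI67 had positive log2 fold changes in both treatments, of which MKI67 under vorinostat was called. The 34 genes not called under DMSO ranged from -0.84 (KIF2C) to 0.56 (CKS2), and the 29 not called under vorinostat from -0.70 (CDCA3) to 0.69 (BUB1). BUB1, KIF11 and TOP2A were above in every EGFR-low library under vorinostat without passing the test (adjusted p = 0.0575, 0.0664 and 0.0775).

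**Figure D3:**
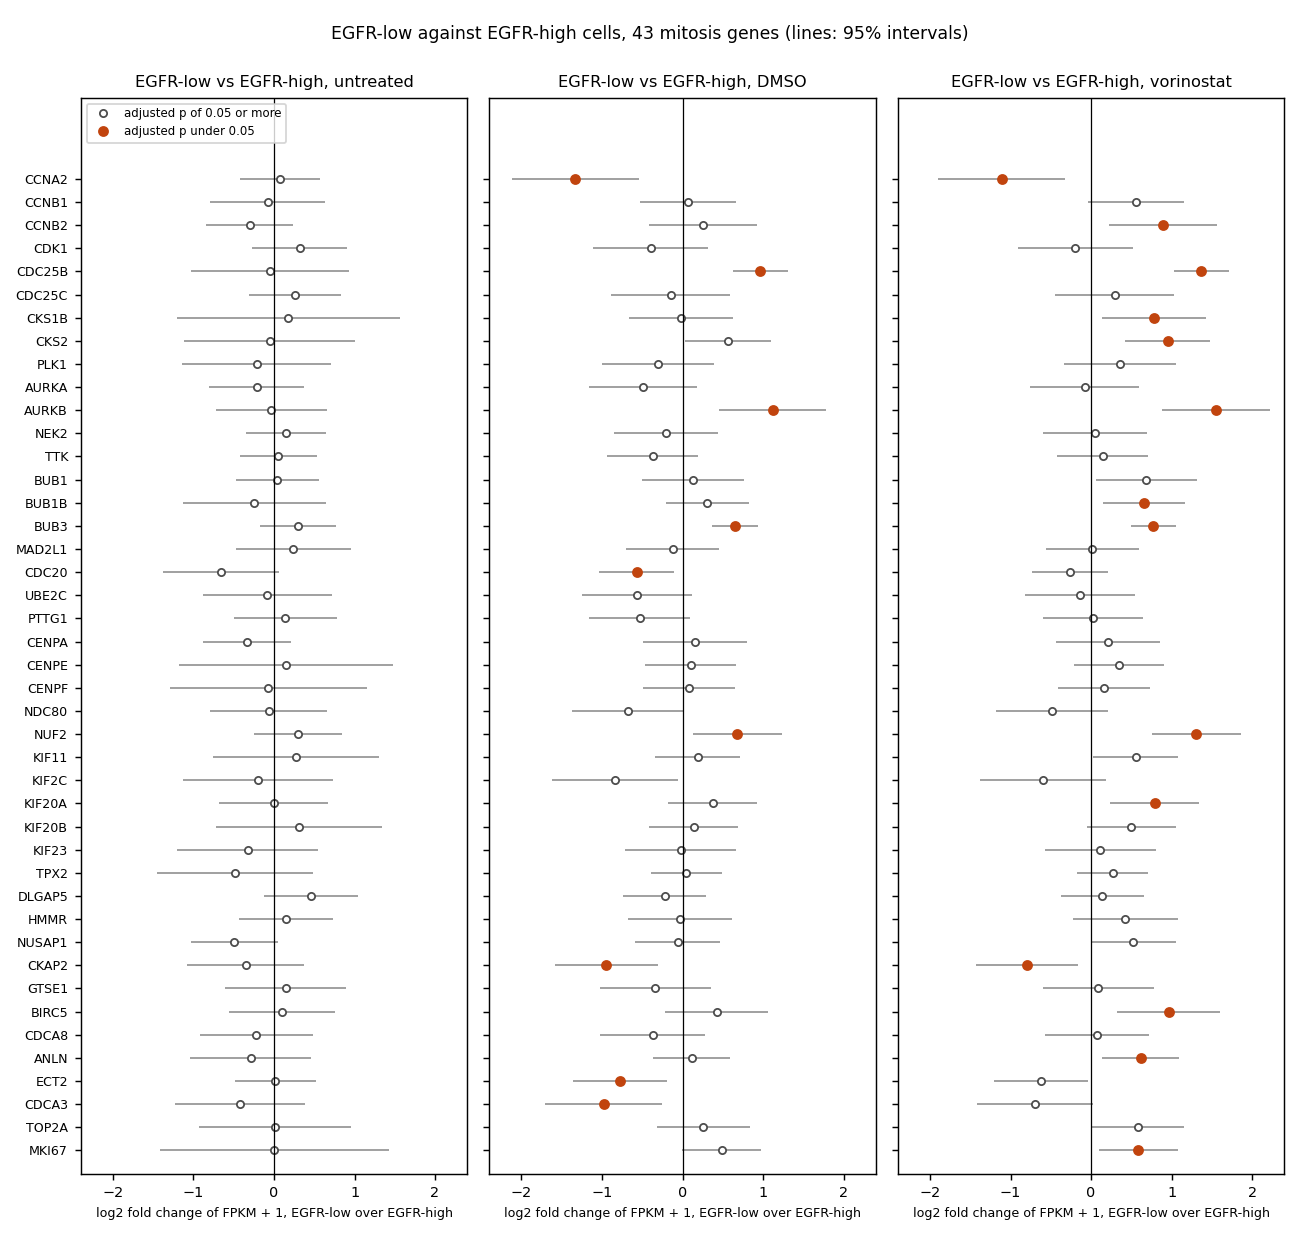
Log2 fold change of FPKM + 1 (horizontal axis, EGFR-low over EGFR-high) of the 43 genes in untreated cells, under DMSO and under vorinostat. Points are estimates over 3 against 3 libraries, lines are 95% intervals, and filled points have an adjusted p under 0.05. No point is filled in the untreated panel, 9 are under DMSO and 14 under vorinostat, with CCNA2 far left and AURKB and CDC25B far right in the last 2 panels.

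The ratio of a gene to a close relative within a library does not depend on the scaling of that library, and 4 such pairs of genes were chosen after the values had been seen. The ratio of AURKB to AURKA, Aurora kinases with a similar catalytic domain, was 1.26, 1.67 and 1.89 in EGFR-low cells under DMSO and 1.62, 1.68 and 1.75 under vorinostat. In EGFR-high cells it was 0.425, 0.396 and 0.727 under DMSO and 0.524, 0.452 and 0.598 under vorinostat. In the 9 untreated libraries it ranged from 0.264 to 0.415. All 6 EGFR-low libraries of the vorinostat experiment thus lay at 1.26 or above, and the highest of the other libraries at 0.727. The ratio of NUF2 to NDC80, which form a dimer within the NDC80 complex, was 1.33, 1.98 and 1.75 in EGFR-low cells under DMSO and 1.72, 1.92 and 1.70 under vorinostat. In EGFR-high cells it was 0.532, 0.559 and 0.767 under DMSO and 0.533, 0.535 and 0.379 under vorinostat, and untreated libraries ranged from 0.534 to 1.35. The ranges of EGFR-low and EGFR-high libraries did not overlap in the vorinostat experiment, but replicate 2 of the untreated parental and EGFR-low cells, at 1.35 and 1.25, lay near or within the EGFR-low range.

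The ratio of CCNA2 to CCNB1, the S phase and the mitotic cyclin, was 0.144, 0.112 and 0.109 in EGFR-low cells under DMSO and 0.0988, 0.103 and 0.105 under vorinostat. In EGFR-high cells it was 0.324, 0.374 and 0.308 under DMSO and 0.264, 0.385 and 0.382 under vorinostat. The highest EGFR-low value was 0.144 and the lowest EGFR-high value 0.264, the latter in the vorinostat library in which all mitosis genes were the lowest of their group. The 9 untreated libraries ranged from 0.212 to 0.521, and untreated EGFR-low cells, with 0.440, 0.273 and 0.332, overlapped untreated EGFR-high cells, with 0.376, 0.212 and 0.367. The last pair, the phosphatases CDC25B and CDC25C, had ratios of 2.21 to 4.94 in the 6 EGFR-low and 1.28 to 3.19 in the 6 EGFR-high libraries of the vorinostat experiment, which overlapped. A ratio shows that its members differ by unequal amounts and not which of them differs.

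**Figure D4:**
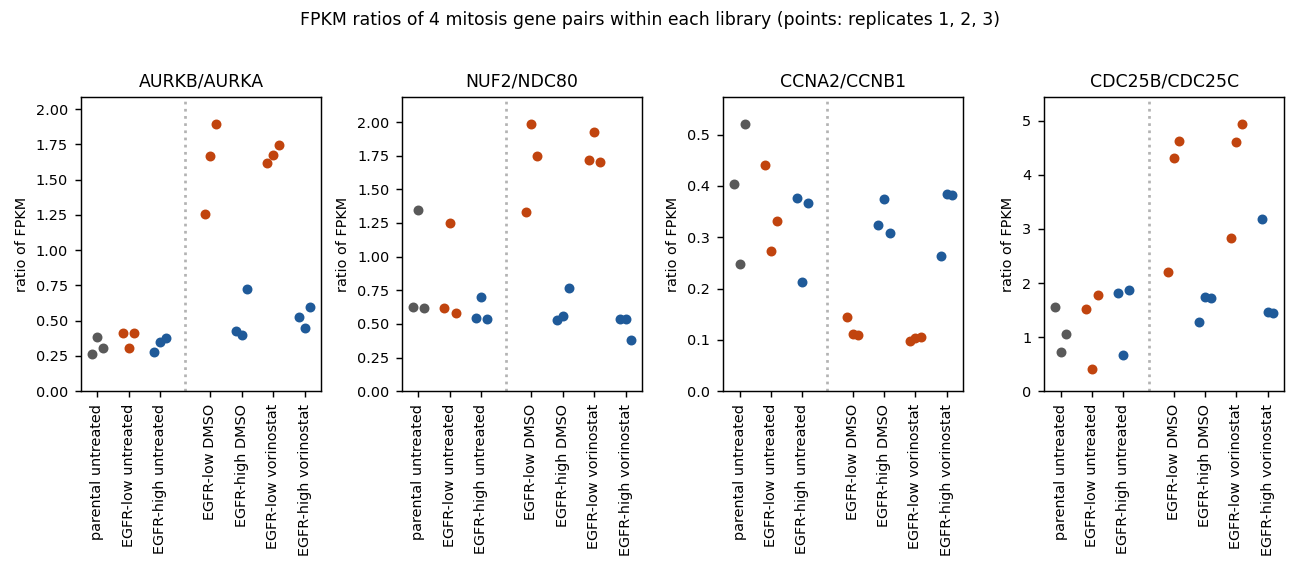
Ratio of FPKM within each library (vertical axis, from 0) for 4 pairs of mitosis genes, with 1 point per replicate in each of the 7 groups and the untreated experiment left of the dotted line. The EGFR-low points right of the line lie above all EGFR-high points for AURKB/AURKA and NUF2/NDC80 and below them for CCNA2/CCNB1, and the ranges overlap for CDC25B/CDC25C.

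EGFR measured 19.7, 16.1 and 18.2 FPKM under vorinostat against 43.3, 17.7 and 19.3 under DMSO in EGFR-low cells and 196, 101 and 207 against 83.3, 152 and 109 in EGFR-high cells, and the groups overlapped in both populations.

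Vorinostat against DMSO gave no call in either cell population, among the mitosis genes or among all tested genes. The paper reports more EGFR protein after vorinostat, while the EGFR RNA values above overlapped. It also reports that the drug removed TGFβ gene signatures and lowered the secretion of TGFβ2, which were not examined here. H1F0, a linker histone gene, averaged 584 FPKM with vorinostat and 554 with DMSO in the EGFR-low population, with medians of 614 and 535. Among EGFR-high libraries its means were 301 and 247 and its medians 217 and 231, and the highest vorinostat value was 472. The absence of calls is not particular to mitosis genes, and whether the drug acted in these libraries was not tested. In EGFR-low cells 0 of 43 genes were called, as were 0% of all 12236 tested genes, and 0 of the 43 had an unadjusted p under 0.05. The log2 fold change of vorinostat over DMSO was positive for 41 of 43 genes, with a median of 0.19 beside -0.03 over all tested genes. PTTG1, the securin that holds separase inactive until anaphase, had the largest value: 91.6, 60.6 and 53.9 FPKM under vorinostat against 80.5, 46.6 and 35.6 under DMSO, which overlapped (log2 fold change 0.38, SE 0.29, 95% interval -0.24 to 1.00, adjusted p = 0.9999). At the other end was ECT2 with 36.5, 27.4 and 25.2 against 42.9, 28.5 and 22.2 (log2 fold change -0.04, SE 0.27, 95% interval -0.62 to 0.55, adjusted p = 0.9999), which turned to 0.21 without EGFR-low DMSO replicate 1. Without that library all 43 log2 fold changes were positive, with a median of 0.39, and still 0 genes were called, with an unadjusted p under 0.05 for 2. Without EGFR-low vorinostat replicate 1, 33 of 43 log2 fold changes were positive, with a median of 0.05. Without EGFR-low DMSO replicate 3, 29 of 43 were, also with a median of 0.05. In a fit with a block for the pairs, since these libraries also pair by number, 0 were called and 1 had an unadjusted p under 0.05. CKS1B and CDC25B were the only genes of the 43 with groups that did not overlap, both higher under vorinostat, where 9.46% of tested genes did not overlap (3.78% higher).

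In EGFR-high cells 0 of 43 genes were called between vorinostat and DMSO, as were 0% of tested genes, and again 0 had an unadjusted p under 0.05. The log2 fold change of vorinostat over DMSO was negative for 38 of 43 genes, with a median of -0.18 beside -0.06 over all tested genes. This direction rests on EGFR-high vorinostat replicate 1: without it 33 of 43 log2 fold changes were positive, with a median of 0.14. CKS1B had the most negative value, with 7.03, 19.0 and 16.2 FPKM under vorinostat and 14.5, 20.7 and 22.4 under DMSO (log2 fold change -0.50, SE 0.30, 95% interval -1.15 to 0.14, adjusted p = 0.940). CENPF had the most positive one, with 13.0, 19.1 and 26.6 against 18.1, 14.6 and 18.6 (log2 fold change 0.14, SE 0.26, 95% interval -0.43 to 0.71, adjusted p = 0.950), and it turned to -0.10 without EGFR-high vorinostat replicate 3. The vorinostat and DMSO groups overlapped for all 43 genes, where 5.33% of tested genes did not overlap. The 95% interval lay within 1 log2 unit in either direction for 41 of 43 genes in EGFR-low and 37 of 43 in EGFR-high cells.

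The difference between the vorinostat effects was tested in the same fit as an interaction. It was positive for 43 of 43 genes, with a median of 0.37 beside 0.04 over all tested genes, and none was called, as was 0% of tested genes (0 of the 43 had an unadjusted p under 0.05). The largest values were those of CKS1B (0.79, SE 0.42, 95% interval -0.12 to 1.71, adjusted p = 0.9993), PLK1 (0.66, SE 0.45, 95% interval -0.32 to 1.65, adjusted p = 0.9993) and CCNB2 (0.63, SE 0.43, 95% interval -0.32 to 1.58, adjusted p = 0.9993). Without EGFR-high vorinostat replicate 1 the difference was positive for 28 of 43 genes with a median of 0.04. Without EGFR-low DMSO replicate 1 it was positive for all 43, with a median of 0.58, and 6 had an unadjusted p under 0.05. Without both EGFR-high vorinostat replicate 1 and EGFR-low DMSO replicate 1, the difference was positive for 40 genes with a median of 0.24, with 0 called. All 4 groups enter this contrast, so it shares its libraries with the comparisons above.

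Genes outside the 43 with roles in mitosis were counted in the same way. There were 90 other mitotic genes, all tested. In the untreated comparison of EGFR-low with EGFR-high cells, where 3.81% of all tested genes were called, 1 of the 90 was. This was CENPW, a subunit of the inner kinetochore, with 105, 134 and 109 FPKM against 47.3, 69.5 and 37.5 (log2 fold change 1.19, SE 0.27, 95% interval 0.59 to 1.79, adjusted p = 0.0350). CENPW was called under 9 of 15 alternatives, with adjusted p up to 0.173. A block for the replicate number called 5 of the 90 (1 higher, 4 lower), beside 8.54% of all tested genes. Under DMSO 11 were called higher and 10 lower in EGFR-low cells (23.3%), and under vorinostat 23 higher and 5 lower (31.1%), both shares again under the backgrounds of 51.8% and 59%. The split under vorinostat moved with the library in which all 43 mitosis genes were the lowest of their group: without EGFR-high vorinostat replicate 1 it was 16 higher and 18 lower, and with median-of-ratios scaling 16 higher and 13 lower. Under DMSO it was 8 higher and 11 lower without EGFR-low DMSO replicate 1, and 9 higher and 14 lower with median-of-ratios scaling. Without EGFR-low DMSO replicate 2 the DMSO count fell from 21 to 12, and without EGFR-low DMSO replicate 3 to 13. The largest under DMSO were DEPDC1 (-1.18), ANAPC11 (1.16), the RING subunit of the APC/C, HJURP (-1.09), the chaperone that places CENPA, SMC1A (1.04), a cohesin subunit, and NCAPD2 (-0.91), a condensin subunit. Under vorinostat they were ANAPC11 (1.59), CEP55 (1.31), which recruits the abscission machinery, SMC1A (1.28), SKA2 (1.25), a kinetochore protein, and DEPDC1B (1.21). Of the 90, limma called 0 against parental cells (9 with an unadjusted p under 0.05 in EGFR-low and 7 in EGFR-high cells) and 0 for vorinostat against DMSO (0 with an unadjusted p under 0.05 in EGFR-low and 1 in EGFR-high cells).

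Regulators of the cycle were examined beside the 43 genes. Of 36 such genes 34 were tested in the vorinostat experiment, and EGFR-low and EGFR-high cells differed in 14 under DMSO (7 higher, 7 lower) and in 18 under vorinostat (11 higher, 7 lower). These are shares of 41.2 and 52.9%, beside 51.8 and 59% of all tested genes. Without EGFR-high vorinostat replicate 1 the split under vorinostat was 10 higher and 11 lower, and with median-of-ratios scaling 7 higher and 9 lower. Under DMSO it was 6 higher and 7 lower without EGFR-low DMSO replicate 1, and 6 higher and 9 lower with median-of-ratios scaling, and the count fell from 14 to 9 without any 1 of EGFR-low DMSO replicates 2 and 3 and EGFR-high DMSO replicates 1 and 2. Of the 33 tested untreated, limma called 0 in each of the 3 comparisons, with an unadjusted p under 0.05 for 2 genes between EGFR-low and EGFR-high cells, 6 between EGFR-low and parental and 2 between EGFR-high and parental cells. A block for the replicate number called 2 of the 33 between EGFR-low and EGFR-high cells, beside 8.54% of all tested genes. CDKN1A (p21) measured 18.6, 17.5 and 20.1 FPKM in EGFR-low and 3.62, 3.17 and 8.93 in EGFR-high cells under DMSO, without overlap (log2 fold change 1.77, SE 0.62, 95% interval 0.43 to 3.12, adjusted p = 0.0305). Under vorinostat it measured 27.6, 15.3 and 17.5 against 21.7, 1.79 and 3.25 (log2 fold change 1.67, SE 0.62, 95% interval 0.32 to 3.01, adjusted p = 0.0351), where EGFR-high replicate 1 lay within the EGFR-low range. CDKN1A was called under 10 of 16 alternatives under DMSO (adjusted p up to 0.103) and under 8 of 16 under vorinostat (up to 0.150). In untreated cells CDKN1A ranged from 0.850 to 5.55 FPKM. Other inhibitors of cyclin-dependent kinases went both ways: CDKN2A (-1.27 under DMSO and -1.23 under vorinostat) and CDKN2B (-1.63 and -2.18) were lower in EGFR-low cells, and CDKN2C (0.97 and 1.32) and CDKN1C (1.47 and 1.26) higher. These 4 genes were called in both treatments under every alternative that tested them. In untreated cells CDKN2B lay the other way, at 10.8 to 14.1 FPKM in EGFR-low and 6.23 to 7.35 in EGFR-high cells. The untreated groups overlapped for CDKN2A and CDKN2C. CDKN1C was near the floor, with means of 2.83 FPKM in EGFR-low and 0.411 in EGFR-high cells under DMSO, and 1.81 and 0.164 under vorinostat.

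Among transcription factors of the cycle, FOXM1, known to activate mitosis genes in G2, was called in neither comparison. FOXM1 measured 30.3, 21.8 and 19.3 FPKM in EGFR-low and 50.05, 39.0 and 37.0 in EGFR-high cells under DMSO. Under vorinostat it measured 26.5, 24.3 and 25.7 in EGFR-low and 17.5, 48.0 and 48.2 in EGFR-high cells. The DMSO groups of FOXM1 did not overlap (adjusted p = 0.0519), and under vorinostat EGFR-high replicate 1 was the lowest of the 6 (adjusted p = 0.277). FOXM1 passed the threshold, lower in EGFR-low cells, under 6 of 16 alternatives under DMSO and 2 of 16 under vorinostat. MYBL2, the B-MYB factor that works with FOXM1, measured 51.7, 43.3 and 38.5 FPKM in EGFR-low against 54.1, 44.7 and 51.5 in EGFR-high cells under DMSO, and 41.5, 48.9 and 50.2 against 30.3, 60.3 and 47.9 under vorinostat. Its groups overlapped and it was not called, and the sign of its difference under vorinostat turned negative without EGFR-high vorinostat replicate 1 and with median-of-ratios scaling. E2F1, a driver of S phase genes, measured 19.7, 26.5 and 23.9 against 6.75, 20.7 and 12.3 under vorinostat and was called higher in EGFR-low cells (log2 fold change 0.89, SE 0.29, 95% interval 0.25 to 1.52, adjusted p = 0.0199). E2F1 missed the threshold under 5 of 16 alternatives, among them leaving out EGFR-high vorinostat replicate 1 (adjusted p up to 0.0676 over all 16). Under DMSO it measured 17.96, 22.3 and 16.6 against 12.9, 14.1 and 15.7 and was not called (adjusted p = 0.289).

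In the promoter windows, 5 of the 37 genes had no CHR match by these letters: AURKB, BUB1, CCNA2, CKAP2 and NEK2. Of these 5, AURKB, CCNA2 and CKAP2 were called between EGFR-low and EGFR-high cells under both DMSO and vorinostat, where these comparisons call 51.8 and 59% of all tested genes. Of the 32 genes with a match 5 were called under DMSO and 9 under vorinostat. Other forms of the CHR were not searched, so a gene without a match may still hold one. The counts are descriptive and were not tested.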

How the data were processed

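RNA from 21 PC-9 libraries in 2 experiments (9 untreated, 12 in the vorinostat experiment, 3 per group) had been sequenced after polyA selection. The deposited tables hold, for each experiment, 1 value per gene and library, which the values show to be FPKM although the authors named them counts. The submitters' processing notes list STAR 2.5.1b, Cufflinks 2.2.1, DESeq2 1.10.1 and hg19. Read depth is unknown, so no counting interval is given, and FPKM cannot tell less RNA of a gene from more RNA of others.

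The 43 genes and the lists (90 other mitotic genes, 36 cell cycle regulators of transcription and inhibitors, 48 of 49 DNA replication genes found) were chosen with earlier results of these data known. Groups came from the sample labels. Genes of 1 FPKM or more in 3 or more libraries (11305 untreated, 12236 vorinostat) were fitted with limma 3.58.1 in R 4.3.3, with a mean-variance trend, on log2(FPKM + 1), with 1 mean per group over all groups of the experiment. Fold changes on this scale understate those of low genes. P-values are two-sided and adjusted by Benjamini-Hochberg over all tested genes, and genes under 0.05 are referred to as called. Tables were drawn up with pandas 2.3.3, numpy 2.4.6 and scipy 1.17.1 under Python 3.11.15 and plotted with matplotlib 3.10.9, and the fit was tested on simulated data. An exact permutation test of 3 against 3 libraries cannot go below p = 0.1 and is not printed.

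Named were 12 anchor genes with values in every group, up to 10 called members in each direction per comparison (the most extreme in each direction where none was called), up to 3 with the largest difference of vorinostat effects, up to 5 called genes of each other list, CDKN1A, FOXM1, MYBL2 and E2F1, and 4 promoters. Genes named beyond these, the 4 ratios and the CCNA2 and CKAP2 promoters were chosen after values were seen. The labels number replicates 1 to 3 in each group. Deviations from group means correlated for every pair of EGFR-low with EGFR-high untreated libraries (r 0.34, 0.73 and 0.69), between EGFR-low DMSO and vorinostat (0.27, 0.30 and 0.33) and between EGFR-low and EGFR-high vorinostat (0.35, 0.35 and 0.16), and these were treated as paired in the alternative with a replicate block. No 2 replicates shared more than 1 identical value above 0. Alternatives were pseudocounts of 0.1 and 5, no filter, a filter of 5 FPKM, median-of-ratios scaling, the block, no trend, removal of GC and length trends, the compared groups alone, leaving out each library, and leaving out both libraries that stood apart, the last added after seeing the data. Promoters are from RefSeq (GRCh38.p14). Transcript length and GC content are those of the longest GENCODE transcript of each gene, and no coordinates of the deposited build were used.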

Additional observations from a re-analysis of the deposited data

How the results depend on the processing

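Of 71 log2 fold changes of named genes, 68 kept their direction under every alternative run, and of the 53 that were called, 31 were called under every alternative and 22 were lost under at least one. Those that turned were ECT2 for vorinostat against DMSO in EGFR-low cells (-0.04, 0.000848 with GC and length trends removed, -0.25 to 0.21 with single libraries left out and 0.21 without both libraries that stood apart), CENPF in EGFR-high cells (0.14, and -0.10 to 0.39 with single libraries left out) and MYBL2 between EGFR-low and EGFR-high cells under vorinostat (0.07, -0.10 with median-of-ratios scaling, -0.20 to 0.29 with single libraries left out and -0.20 without both libraries that stood apart), none of them called. The count of mitosis genes called under DMSO, 9, was 5 without a filter on low values, 4 to 12 with single libraries left out and 20 without both libraries that stood apart. Under vorinostat the count of 14 ranged from 8 to 15 with single libraries left out. With the replicate block, 1 gene, NUSAP1, was called between EGFR-low and parental cells, where the numbers do not pair the samples (correlations of deviations 0.59, 0.42 and -0.09). It moved no other count of mitosis genes called by over 1.5 times. With it, all genes called rose from 431 to 965 between EGFR-low and EGFR-high untreated cells, where the numbers pair the samples, and from 181 to 525 between EGFR-low and parental cells, and mitosis genes with an unadjusted p under 0.05 rose from 0 to 2 and from 4 to 10 in these comparisons and from 4 to 10 between EGFR-high and parental cells. The cause of these changes was not tested. Depth is unknown, and 3 libraries a group left the 95% interval of an untreated EGFR-low to EGFR-high difference reaching a median of 0.72 log2 units to either side.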

Other observations

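DNA replication genes, active in S phase before mitosis, were measured in the same libraries (48 genes, all tested). In untreated cells limma called 0 in each comparison, with an unadjusted p under 0.05 for 4 between EGFR-low and EGFR-high cells, 3 between EGFR-low and parental and 1 between EGFR-high and parental cells. A block for the replicate number called 3, all lower, between EGFR-low and EGFR-high cells, beside 8.54% of all tested genes. Comparing EGFR-low with EGFR-high cells, 6 were called higher and 4 lower under DMSO (20.8%, beside 51.8% of all tested genes), and 16 higher and 2 lower under vorinostat (37.5%, beside 59%). Without EGFR-high vorinostat replicate 1 the split under vorinostat was 12 higher and 6 lower, and with median-of-ratios scaling 14 higher and 4 lower. The count of 18 rose to 25 without EGFR-high vorinostat replicate 2 and fell to 12 without EGFR-low vorinostat replicate 2. Under DMSO the split was 4 higher and 5 lower without EGFR-low DMSO replicate 1, and 4 higher and 8 lower with median-of-ratios scaling, and the count of 10 fell to 4 without any 1 of EGFR-low DMSO replicates 2 and 3 and EGFR-high DMSO replicates 1 and 2. Under vorinostat the largest were those of TK1, thymidine kinase (log2 fold change 1.43, SE 0.31, 95% interval 0.75 to 2.11, adjusted p = 0.00199), CDC45 (log2 fold change 1.30, SE 0.25, 95% interval 0.74 to 1.85, adjusted p = 0.00104), MCM2 (log2 fold change 1.24, SE 0.23, 95% interval 0.73 to 1.76, adjusted p = 7.82e-04) and MCM6 (log2 fold change 1.1, SE 0.29, 95% interval 0.45 to 1.74, adjusted p = 0.00736), parts of the replicative helicase, and POLE2, a subunit of DNA polymerase epsilon (log2 fold change 1.03, SE 0.19, 95% interval 0.61 to 1.44, adjusted p = 7.05e-04). These 5 were called under all 16 alternatives. TK1 measured 53.8, 59.1 and 51.7 FPKM in EGFR-low and 10.7, 30.7 and 22.9 in EGFR-high cells under vorinostat. EGFR-high vorinostat replicate 1 gave the lowest TK1 value of its group, as it did for all 43 mitosis genes. Under DMSO the largest were LIG1, DNA ligase 1 (log2 fold change -1.04, SE 0.38, 95% interval -1.87 to -0.22, adjusted p = 0.0362), CDC45 (log2 fold change 0.94, SE 0.25, 95% interval 0.39 to 1.5, adjusted p = 0.00898), MCM2 (log2 fold change 0.74, SE 0.23, 95% interval 0.23 to 1.25, adjusted p = 0.0202), RFC2 of the clamp loader (log2 fold change 0.67, SE 0.23, 95% interval 0.16 to 1.18, adjusted p = 0.0307) and RPA2, which binds single-stranded DNA (log2 fold change 0.64, SE 0.17, 95% interval 0.26 to 1.02, adjusted p = 0.00905). CDC45 and RPA2 were called under all 16 alternatives, MCM2 under 13 (adjusted p up to 0.0804), RFC2 under 11 (up to 0.125) and LIG1 under 10 (up to 0.128). MCM2 measured 35.1, 45.4 and 36.6 FPKM in EGFR-low and 20.9, 19.3 and 29.5 in EGFR-high cells under DMSO, without overlap, and LIG1 measured 14.9, 10.8 and 8.28 against 26.3, 21.7 and 23.3. Vorinostat against DMSO called 0 of the 48 in limma in either population (0 and 1 with an unadjusted p under 0.05 in EGFR-low and EGFR-high cells).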
